A study of Mus musculus with 24 samples.

Results

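The 5 genes described here were the polo-like kinase genes Plk2 and Plk3 and the GADD45 genes Gadd45a, Gadd45b and Gadd45g. They were taken by symbol from a whole-kidney expression table of 19426 mouse genes, and each symbol was found on 1 line of it. The group was put together with the differences between treatments already known, so the levels and fold changes of these 5 genes are given as a description, with no test.

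Polo-like kinases are serine/threonine kinases with a carboxy-terminal polo-box domain that docks them on phosphorylated partners. Plk1 drives mitosis and Plk4 builds centrioles, whereas Plk2 and Plk3 were found as immediate-early genes, switched on quickly by growth factor and stress signals. GADD45 proteins (growth arrest and DNA damage inducible) are small acidic proteins without enzyme activity that bind the stress kinase MTK1 (gene Map3k4), PCNA, p21 and the CDK1-cyclin B complex, and so connect stress and hormone signals to p38 and JNK signaling and to cell cycle arrest. Gadd45a is a well-known p53 target, Gadd45b was cloned as a myeloid differentiation and TGF-β response gene, and Gadd45g as a cytokine-inducible gene.

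Whole kidneys of C57BL6 mice, labelled as male, were profiled by bulk RNA-Seq, with 8 libraries per group. The mice had received a single injection of vehicle, PTH or YKL-05-099. PTH was hPTH(1-34), the active amino-terminal fragment of parathyroid hormone. YKL-05-099 is a compound that inhibits all 3 salt inducible kinases, SIKs, and also acts on other kinases. The question behind the design was how far direct SIK inhibition resembles PTH, which lowers SIK activity through cAMP and PKA. The mice are given as 13 weeks old and the kidneys as taken 1 hour (PTH) or 3 hours (YKL-05-099) after the injection. These times are stated for the RT-qPCR of what are described as the same kidneys. Agent and time after injection thus cannot be told apart in a comparison of both agents. No time is given for the vehicle kidneys. As 1 vehicle group served both agents, time after injection may also enter the comparisons with vehicle. No genotype is given beyond the strain, the route of PTH is given as intraperitoneal in one place and subcutaneous in another, and the series text states n = 6 where 8 libraries per group were present.

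Depth was estimated at 5960000 to 7060000 fragments per library, 16362 to 16866 genes were above 0, and pairwise correlations across genes were 0.939 to 0.977. All 12 nephron segment markers passed the filter on low values, with a summed level of 3424 to 4748 FPKM. The label gives male mice, but Xist lay between 76.26 and 114.05 FPKM throughout. Ddx3y and Uty, on the Y chromosome, did not exceed 0.1 FPKM in any library. These are levels of female rather than male tissue, and label and values were not reconciled. Cyp27b1, the vitamin D 1α-hydroxylase that PTH is known to induce, was at 2.69 to 7.05 FPKM with vehicle, 29.79 to 141.94 with PTH and 11.93 to 62.53 with YKL-05-099. YKL-05-099 replicate 1 stood apart from its group. It was the lowest of the 8 libraries for 252 (28.8%) of the 876 genes called higher with YKL-05-099, against 3.08% to 18.7% for the others, and values that it moved are given with and without it.

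The promoters are shown first, because cAMP acts on transcription through the cAMP response element (CRE), the site of CREB and its CRTC coactivators, and SIKs hold CRTC proteins in the cytoplasm. RefSeq promoter windows (GRCm38.p6) were matched for 5 of 5 genes, and the 250 bases before each transcription start were searched on both strands for the full CRE (TGACGTCA), the shorter CRE core (TGACG), the AP-1 site (TGANTCA) and the CArG box. Plk2 (chr13:110394962-110395009, plus strand) held 1 full CRE at positions -62 to -55 from the start, which also accounts for its pair of overlapping cores. Plk3 (chr4:117134002-117134115, minus strand) held cores at -132 to -128 and -63 to -59 and no full CRE. Gadd45a, Gadd45b and Gadd45g held none of these letters, and Gadd45g (chr13:51846575-51846674, plus strand) is shown for comparison. The coordinates and letters given are only parts of the 250 bases searched. They run from 82 to 35 bases before the start for Plk2, 152 to 39 for Plk3 and 100 to 1 for Gadd45g. Capitals mark the full CRE in Plk2 and the cores in Plk3, and all 3 sequences run 5′ to 3′ along the gene's own strand.
Plk2: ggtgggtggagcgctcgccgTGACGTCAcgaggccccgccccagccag
Plk3: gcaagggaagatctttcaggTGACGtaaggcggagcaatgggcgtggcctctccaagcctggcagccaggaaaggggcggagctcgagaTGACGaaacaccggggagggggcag
Gadd45g: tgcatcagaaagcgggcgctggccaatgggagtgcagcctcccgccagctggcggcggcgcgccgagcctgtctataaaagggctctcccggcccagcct

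Among all 32851 mouse promoters in the same table, 1.55% held the full CRE, 17.8% a core, 6.75% an AP-1 site and 1.47% a CArG box. None of the 5 windows held an AP-1 site or a CArG box. A match describes the letters of the window only, and binding was not measured in these libraries.

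The level of each gene was given as FPKM (fragments per kilobase of transcript, scaled to the library's mapped total), so levels can be compared between genes of different length but are relative to the rest of each library. All 5 genes passed the filter of a mean of at least 0.5 FPKM, as did 13991 genes in all. The plot of levels by library shows every value.

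**Figure D1:**
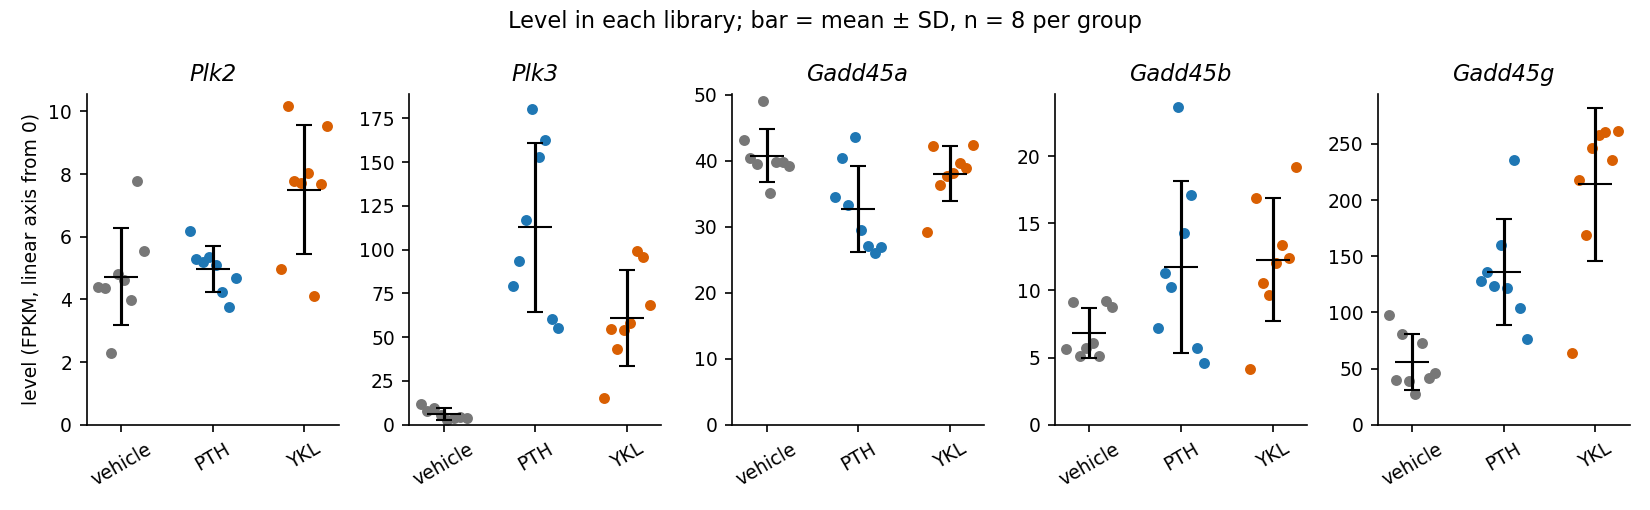
Level of each gene (FPKM, linear axis from 0, own scale per panel) in the 24 libraries, 1 point per library, with the group mean ± SD (n = 8). Plk3 is the gene whose treated libraries all lie above the highest vehicle library of 11.95 FPKM, and the lone low YKL-05-099 point in Gadd45a, Gadd45b, Gadd45g and Plk3 is replicate 1.

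Plk2 (gene 20620, GRCm38 chr13:110395044-110400844, plus strand, 14 exons), whose protein acts in centriole duplication and, in neurons, in synaptic scaling, had a narrower range than Plk3. With vehicle its lowest, median and highest levels were 2.29, 4.52 and 7.79 FPKM, with PTH they were 3.75, 5.15 and 6.18 FPKM, and with YKL-05-099 they were 4.11, 7.76 and 10.18 FPKM. All 8 PTH libraries lay within the vehicle range, and 3 of 8 YKL-05-099 libraries lay above it. The means were 4.73 ± 1.55, 4.97 ± 0.747 and 7.50 ± 2.06 FPKM (SD, n = 8 each). The fitted log2 fold change over vehicle was 0.13 (SE 0.19) with PTH, less than its error, and 0.67 (SE 0.19) with YKL-05-099. YKL-05-099 exceeded PTH by 0.54 (SE 0.19) on the log2 scale, and 6 of 8 YKL-05-099 libraries lay above the highest PTH library. By mean Plk2 thus ranked vehicle, PTH, YKL-05-099, with the PTH libraries inside the vehicle range.

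Plk3 (gene 12795, GRCm38 chr4:117128655-117133963, minus strand, 15 exons), a kinase linked to the DNA damage and hypoxia responses, had the widest range of the 5 genes as a fold, with its highest library at 72.7 times its lowest (9.56 times for Gadd45g). The vehicle libraries lay at a lowest, median and highest level of 2.48, 5.21 and 11.95 FPKM, the PTH libraries at 55.2, 105 and 180.29 FPKM, and the YKL-05-099 libraries at 15.46, 56.3 and 98.95 FPKM. Every treated library was above every vehicle library, and both treated groups overlapped each other. The group means were 6.16 ± 3.24 FPKM with vehicle, 113 ± 48.2 with PTH and 61.0 ± 27.2 with YKL-05-099 (SD, n = 8 each), which moved the gene from the 37.9th percentile of expression among genes tested to the 94.5th and 89.4th. The log2 fold change over vehicle was 4.21 (SE 0.34; 18.6-fold) with PTH and 3.28 (SE 0.34; 9.73-fold) with YKL-05-099. PTH exceeded YKL-05-099 by 1.91-fold, a log2 difference of -0.93 (SE 0.34) for YKL-05-099 minus PTH, and 4 of 8 YKL-05-099 libraries lay below the lowest PTH library.

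The lowest YKL-05-099 value of Plk3 was replicate 1. Without it, the group mean was 67.5 ± 21.7 FPKM, the log2 fold change over vehicle was 3.54 (SE 0.30), and the difference from PTH was -0.67. Plk3 was the only 1 of the 5 genes whose treated and vehicle libraries did not overlap, and it was higher with both agents. Among all genes tested, 1.59% were higher without overlap with PTH and 1.54% with YKL-05-099, and since the genes were chosen on these contrasts nothing was read from that count. Without YKL-05-099 replicate 1, Gadd45b and Gadd45g also lay wholly above vehicle, 3 of 5 genes, where 2.22% of all genes did. Between YKL-05-099 and PTH, 0 of 5 genes were free of overlap, where 0.893% of all genes were. By size of the log2 fold change, Plk3 ranked 3rd from the top of 13991 genes with PTH and 6th with YKL-05-099.

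Gadd45a (gene 13197, GRCm38 chr6:67035096-67037407, minus strand, 4 exons) was the only 1 of the 5 with a lower mean after PTH than with vehicle. It varied least of the 5 among vehicle and among YKL-05-099 libraries (SD of 9.82% and 11% of the mean). Its lowest, median and highest levels were 35.09, 39.8 and 49.05 FPKM with vehicle, 26.09, 31.4 and 43.66 with PTH, and 29.16, 38.6 and 42.34 with YKL-05-099. The PTH libraries reached below the vehicle range in 6 of 8 cases, and the ranges of all 3 groups overlapped. Means were 40.8 ± 4.01, 32.7 ± 6.56 and 38.1 ± 4.18 FPKM (SD, n = 8 each). The log2 fold change over vehicle was -0.34 (SE 0.10) with PTH and -0.10 (SE 0.10) with YKL-05-099, the latter no larger than its error. YKL-05-099 replicate 1 was the lowest of its group here too, and without it the group mean was 39.3 ± 2.29 FPKM and the log2 fold change over vehicle -0.05.

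Gadd45b (gene 17873, GRCm38 chr10:80930091-80932204, plus strand, 4 exons), a target of NF-κB and TGF-β signaling in other tissues, was the least abundant GADD45 gene. With vehicle its lowest, median and highest levels were 5.09, 5.92 and 9.19 FPKM, with PTH 4.57, 10.8 and 23.68 FPKM, and with YKL-05-099 4.15, 12.2 and 19.19 FPKM. Above the highest vehicle library lay 5 of 8 PTH and 7 of 8 YKL-05-099 libraries, while 1 library of each treated group lay below the lowest vehicle library. The means of 11.8 ± 6.42 FPKM with PTH and 12.3 ± 4.57 with YKL-05-099 stood against 6.85 ± 1.85 with vehicle (SD, n = 8 each), and the spread within the PTH group was the largest of all 15 gene and group combinations relative to its mean (54.6%). The log2 fold change over vehicle was 0.63 (SE 0.29) with PTH and 0.76 (SE 0.29) with YKL-05-099. Without YKL-05-099 replicate 1, which held the low value of 4.15 FPKM, the group's lowest level was 9.64 FPKM and its log2 fold change over vehicle 0.97. PTH and YKL-05-099 libraries overlapped in this gene (log2 difference 0.14, SE 0.29, and 0.34, SE 0.26, without that library).

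Gadd45g (gene 23882, GRCm38 chr13:51846675-51848475, plus strand, 4 exons), the cytokine-inducible member, had the highest mean level of the 5 genes in each group. The lowest, median and highest levels were 27.36, 43.6 and 97.77 FPKM with vehicle, 76.2, 125 and 235.78 with PTH, and 63.93, 241 and 261.51 with YKL-05-099. In each treated group 7 of 8 libraries lay above the highest vehicle library, and the exceptions were PTH replicate 8 and YKL-05-099 replicate 1. The means were 55.5 ± 24.9, 136 ± 47.1 and 214 ± 68.0 FPKM (SD, n = 8 each), and without replicate 1 the YKL-05-099 libraries had a mean of 236 ± 33.2 FPKM and a lowest level of 169.29 FPKM. The log2 fold change over vehicle was 1.34 (SE 0.28; 2.54-fold) with PTH and 1.96 (SE 0.28; 3.89-fold) with YKL-05-099. YKL-05-099 minus PTH gave 0.62 (SE 0.28), or 0.85 without replicate 1, and 4 of 8 YKL-05-099 libraries lay above the highest PTH library. The order of the groups was therefore vehicle, PTH, YKL-05-099, the reverse of Plk3 for the treated groups.

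**Figure D2:**
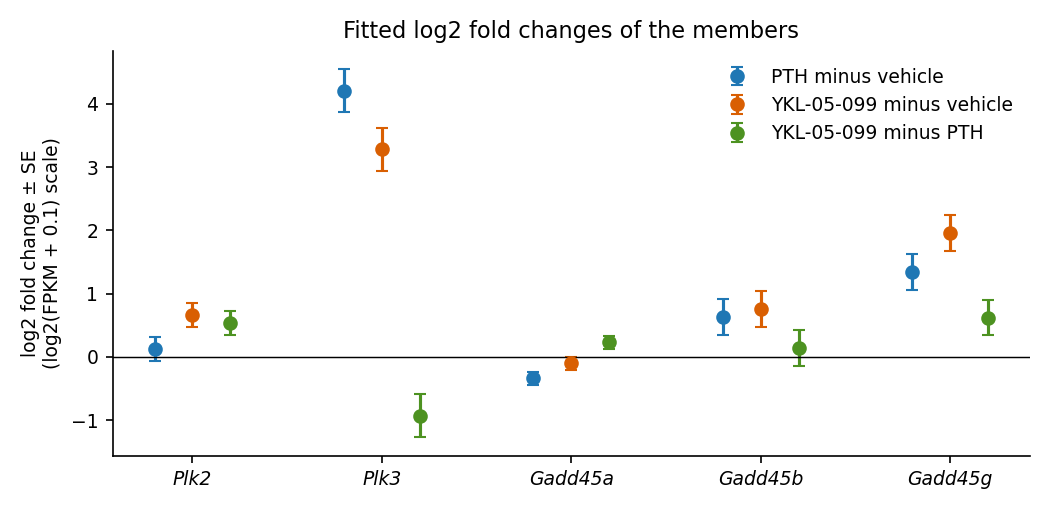
Fitted log2 fold changes (log2(FPKM + 0.1) scale, points with SE) of the 5 genes for PTH minus vehicle, YKL-05-099 minus vehicle and YKL-05-099 minus PTH. Plk3 stands at 4.21 and 3.28 over vehicle and below 0 between the agents, and Gadd45a stands at or below 0 in both comparisons with vehicle.

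The plot of fitted fold changes sets the 3 comparisons side by side. Both comparisons with vehicle use the same 8 vehicle libraries, so a vehicle library that is high or low moves both. The median log2 fold change of the 5 genes was 0.63 with PTH and 0.76 with YKL-05-099, where that of all genes tested was -0.05 in each comparison. Gadd45g ranked 91st and 26th from the top of all genes with PTH and YKL-05-099, Gadd45b 347th and 189th, Plk2 2853rd and 231st, and Gadd45a 12524th and 8378th. The 5 genes thus spread from the extreme top to the lower part of the PTH ranking.

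The makeup of each family differed between groups within single libraries, and ratios within a library do not depend on its total. The ratio of Plk3 to Plk2 had a lowest, median and highest value of 0.536, 1.07 and 4.09 with vehicle, 11.8, 20.1 and 38.4 with PTH, and 3.12, 7.07 and 24.1 with YKL-05-099. Plk3 exceeded Plk2 in 4 of 8 vehicle libraries and in 8 of 8 libraries of each treated group. Among the GADD45 genes, Gadd45g made up 39.9% to 66.7% of the summed level with vehicle (median 47.3%), 70.4% to 84.2% with PTH (median 73.7%) and 65.7% to 83.9% with YKL-05-099 (median 81.5%). The summed GADD45 level had a median of 93.5 FPKM with vehicle, 168 with PTH and 290 with YKL-05-099, and the group ranges of 68.6 to 147, 108 to 280 and 97.2 to 323 FPKM overlapped. Gadd45g and Gadd45a were close with vehicle, at a median ratio of 1.1, and stood at 3.70 with PTH and 6.12 with YKL-05-099. The lowest YKL-05-099 value of these measures was replicate 1 each time. Without it, the lowest values were 5.37 for the ratio of Plk3 to Plk2, 78.3% for the Gadd45g share and 216 FPKM for the GADD45 sum, so that the 7 other YKL-05-099 libraries lay above the highest vehicle sum of 147 FPKM.

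From the estimated depth and the RefSeq transcript lengths, the values rested on about 37 to 195 fragments per library for Gadd45b and 43.9 to 194 for Plk2, against 219 to 420 for Gadd45a, 200 to 1890 for Gadd45g and 40.3 to 2750 for Plk3. Both Plk3 and Gadd45a overlap a gene on the opposite strand, and as the strand setting of the counting was not given, reads of the shared bases cannot be told apart. Tctex1d4 shares 84 of the 2531 exonic bases of Plk3 and was at a median of 0.225 FPKM with vehicle, 1.62 with PTH and 0.745 with YKL-05-099. E230016M11Rik shares 337 of the 1764 exonic bases of Gadd45a and was at a median of 1.88, 2.39 and 3.03 FPKM in the same order. The highest values of any library were 3.75 FPKM for Tctex1d4 and 4.08 FPKM for E230016M11Rik.

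Variation among libraries of 1 group was not used to choose the genes and was tested as correlations of log2(FPKM + 0.1) for 10 gene pairs in each of the 3 groups, 30 relations in all. Both values of a pair come from the same library, so anything that moves a whole library enters both. Of the 30 values of Pearson's r, 25 were above 0, 11 had an unadjusted exact permutation p under 0.05, and 2 held after Benjamini-Hochberg adjustment (3 for Spearman's rho).

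Plk3 and Gadd45b went together among the PTH libraries. Pearson's r was 0.97 (exact two-sided permutation p = 0.00015, adjusted 0.0045, n = 8) and Spearman's rho 0.98 (exact p = 0.0004, adjusted 0.006), and without the 2 libraries farthest from the median r was 0.93. PTH replicates 7 and 8 held the lowest values of both genes (60.48 and 55.2 FPKM for Plk3, 5.7 and 4.57 FPKM for Gadd45b), and replicate 4 the highest of both (180.29 and 23.68 FPKM). Among vehicle libraries the same pair had r = -0.17 (exact permutation p = 0.68, n = 8), and among YKL-05-099 libraries r = 0.82 (exact permutation p = 0.034, adjusted 0.10), which fell to 0.27 without replicate 1. Whether the correlation differs between groups was not tested.

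Gadd45a and Gadd45b went together among the YKL-05-099 libraries, with r = 0.99 (exact permutation p = 0.00032, adjusted 0.0048, n = 8) and rho = 0.98 (exact p = 0.0004, adjusted 0.006). The relation stood at r = 0.93 without the 2 libraries farthest from the median and at 0.95 without replicate 1, the lowest library for both genes. The levels ran from 29.16 to 42.34 FPKM for Gadd45a and from 4.15 to 19.19 FPKM for Gadd45b, so a narrow range of one gene went with a wide range of the other. With vehicle the pair had r = -0.17 (exact permutation p = 0.68), and with PTH r = 0.53 (exact permutation p = 0.18). Plk2 and Gadd45a among PTH libraries passed by rank only (rho = 0.90, exact adjusted p = 0.046), with r = 0.71 (exact permutation adjusted p = 0.13) and r = 0.48 without the 2 farthest libraries. With libraries rescaled by median ratios this pair no longer passed (rho = 0.83, exact permutation adjusted p = 0.077).

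Other high values of r among YKL-05-099 libraries rested on replicate 1. Plk3 with Gadd45g had r = 0.92 (exact permutation p = 0.0059, adjusted 0.059, n = 8) and 0.61 without that library, and Gadd45a with Gadd45g had r = 0.91 (exact permutation adjusted p = 0.09) and 0.45 without it. In the vehicle group no relation passed, and the smallest p was for Plk2 with Gadd45b (r = 0.68, exact permutation p = 0.032, adjusted 0.10). The plot of pairwise correlations gives all 30 values. With libraries rescaled by median ratios, 6 values of r passed instead of 2 and 2 values of rho instead of 3, the added values of r being Plk3 with Gadd45g and Gadd45b with Gadd45g in the PTH group and Gadd45g with Plk3 and with Gadd45a in the YKL-05-099 group.

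**Figure D3:**
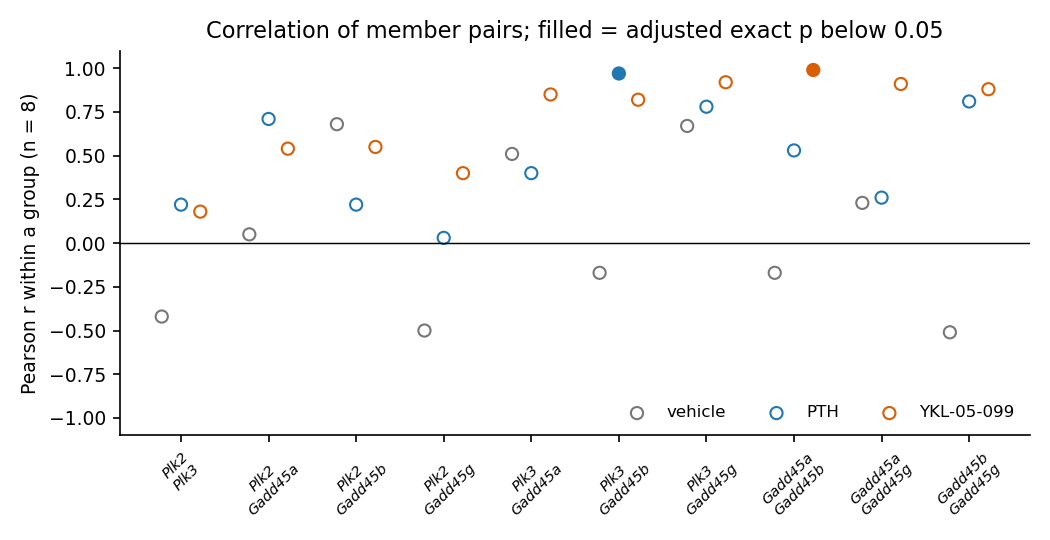
Pearson's r of log2(FPKM + 0.1) for each gene pair within each group (n = 8 libraries), filled where the adjusted exact permutation p was under 0.05. The filled points are Plk3 with Gadd45b after PTH (0.97) and Gadd45a with Gadd45b after YKL-05-099 (0.99), and the 5 negative values are all in the vehicle group.

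The genes with the pattern most like each of the 5 over all 24 libraries are given as a description, since differences between groups and the depth of each library enter such a correlation. Plk3 was most like Per1, a clock gene that cAMP induces (r = 0.97), Cebpb, a leucine zipper transcription factor (0.97), and Atf3, a stress-induced repressor of the CREB/ATF family (0.96). With group means removed, r was still 0.89, 0.87 and 0.82. Gadd45g was most like Tob2, an antiproliferative adaptor (0.95), Dusp1, a phosphatase of p38 and JNK (0.95), and Rgs2, a brake on G protein signaling (0.92), and 0.87, 0.83 and 0.77 with group means removed. The genes most like Gadd45b included the immediate-early gene Ier2 (0.89) and the chemokine Cxcl1 (0.85), and r was 0.87 and 0.80 with group means removed.

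The remaining pair had other company. Plk2 was most like Tnfaip3, a brake on NF-κB (0.74), Arl4d, a small GTPase (0.73), and the steroid sulfatase gene Sts (0.72), lower values than for any other of the 5 genes, and with group means removed r was 0.53, 0.56 and 0.71. Gadd45a was most like Clasrp (0.86), Lamtor2, a subunit of the lysosomal Ragulator complex (0.84), and Syne4, a nuclear envelope protein (0.84), with 0.85, 0.87 and 0.83 once group means were removed. None of these genes appeared for more than 1 of the 5.

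The pathways around the 5 genes were followed with 6 lists of 70 different genes, 64 of them tested, in limma on log2(FPKM + 0.1) with adjustment over all 13991 genes. The lists were made with earlier results of these data known, so their counts are a description and not independent evidence. With PTH, 15 of the 64 genes rose and 8 fell (35.9%, where 17.1% of all genes passed, 6% higher and 11.1% lower), and with YKL-05-099, 17 rose and 6 fell (35.9%, against 17.7% of all genes, 6.26% higher and 11.5% lower). Between the agents 5 were higher and 5 lower with YKL-05-099 than with PTH (15.6%, against 6.42% of all genes, 2.84% higher and 3.58% lower). The median log2 fold change of the 64 genes was 0.01 with PTH and 0.04 with YKL-05-099, and the share that rose was above that of all genes while the share that fell was close to it.

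The other polo-like kinases were low in whole kidney. Plk1, the mitotic kinase, was at 1.07 ± 0.320 FPKM with vehicle, 0.971 ± 0.305 with PTH and 0.661 ± 0.213 with YKL-05-099 (SD, n = 8 each). Plk4, which starts centriole assembly, was at 1.02 ± 0.229, 1.05 ± 0.243 and 1.01 ± 0.242 FPKM, and Plk5 did not pass the filter. Of the 2 tested, 0 passed in limma with either agent, and at an unadjusted p under 0.05 there were 0 with PTH and 1 with YKL-05-099. For Plk1 with YKL-05-099 the log2 fold change was -0.63 (SE 0.23, limma adjusted p = 0.0602, lower than the vehicle mean in 8 of 8 libraries). Cell division genes were low throughout, at a summed 7.44 to 13.8 FPKM for 12 genes, of which 8 were tested. In both comparisons with vehicle 1 of them fell, where 11.1% of all genes fell with PTH and 11.5% with YKL-05-099. It was Cdc20, by 0.88 on the log2 scale with PTH (limma adjusted p = 0.00571) and by 0.75 with YKL-05-099 (limma adjusted p = 0.0184), in 8 of 8 libraries each. Cdc20 averaged only 0.87 FPKM with vehicle, 0.421 with PTH and 0.497 with YKL-05-099, near the filter level of 0.5 FPKM. At an unadjusted limma p under 0.05, 1 of the 8 cell division genes was lower with PTH and 3 with YKL-05-099, and 0 were higher. The medians of this list were -0.11 and -0.29, against -0.05 for all genes.

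Of the proteins that GADD45 family members bind, 6 of 8 genes were tested, and 1 rose and 1 fell with each agent. With PTH 6% of all genes rose and 11.1% fell, and with YKL-05-099 6.26% and 11.5%, so nothing was read from these counts. The one that rose was Cdkn1a, which encodes the CDK inhibitor p21, from 6.96 ± 2.92 FPKM to 13.4 ± 3.51 with PTH and 14.3 ± 4.30 with YKL-05-099 (SD, n = 8 each). Its log2 fold changes were 1.00 (SE 0.22, limma adjusted p = 0.00297) and 1.08 (SE 0.22, limma adjusted p = 0.00211), with 8 of 8 libraries above the vehicle mean in both groups. Map2k7, the JNK kinase that GADD45β blocks, fell by 0.20 with YKL-05-099 (limma adjusted p = 0.0117, 8 of 8 libraries). Its fall with PTH (0.15 on the log2 scale, limma adjusted p = 0.0474) was lost in 23 of 32 alternatives, with an adjusted p of up to 0.113. Map3k4, the kinase through which GADD45 proteins signal, was at 9.49 ± 1.17, 9.54 ± 1.02 and 9.73 ± 0.622 FPKM (SD, n = 8 each) in vehicle, PTH and YKL-05-099 libraries, and Pcna at 38.2 ± 3.26, 37.5 ± 3.41 and 33.8 ± 2.34. Neither passed in either comparison with vehicle. Pcna came close with YKL-05-099, at a log2 fold change of -0.17 (SE 0.06, limma adjusted p = 0.0537, 0 of 8 libraries above the vehicle mean).

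In the p38 and JNK pathway 14 of 15 genes were tested, and 2 rose and 2 fell with PTH, against 1 and 3 with YKL-05-099. Among all genes 6% rose and 11.1% fell with PTH, and 6.26% and 11.5% with YKL-05-099. The single rise with YKL-05-099, that of the p38α gene Mapk14 (0.19, limma adjusted p = 0.0478), was lost in 19 of 32 alternatives, and the fall of the p38γ gene Mapk12 (log2 fold change -0.51, limma adjusted p = 0.0351) in 12. Map2k6, the p38 kinase, fell with PTH from 7.93 ± 1.59 to 5.13 ± 0.573 FPKM (log2 fold change -0.60, limma adjusted p = 0.0005, 8 of 8 libraries), and was at 8.26 ± 1.29 FPKM with YKL-05-099 (SD, n = 8 each). The difference between the agents was 0.67 (limma adjusted p = 0.00042). The p38 target kinases Mapkapk2 and Mapkapk3 rose with PTH by 0.38 and 0.39 on the log2 scale (limma adjusted p = 0.00018 and 0.0002, 8 of 8 libraries each). Mapkapk3 was lower with YKL-05-099 than with PTH by a log2 difference of -0.32 (limma adjusted p = 0.00464). Mapkapk5 fell with YKL-05-099, from 23.8 ± 1.45 to 19.2 ± 1.53 FPKM (log2 fold change -0.31, limma adjusted p = 0.00286, 8 of 8 libraries).

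The p53 pathway went in both directions. Of 22 genes tested of 23, 3 rose and 5 fell with PTH, and 4 rose and 3 fell with YKL-05-099. The shares over all genes were 6% higher and 11.1% lower with PTH, and 6.26% and 11.5% with YKL-05-099. Trp53 itself was at 11.1 ± 1.58, 11.2 ± 2.45 and 11.7 ± 1.39 FPKM in the 3 groups (SD, n = 8 each), and did not pass. Pmaip1, which encodes the BH3-only protein NOXA, rose by 0.73 with PTH (limma adjusted p = 0.00031) and by 0.44 with YKL-05-099 (limma adjusted p = 0.0196), in 8 of 8 libraries each. Sesn1, a sestrin that restrains mTORC1, fell with PTH from 10.1 ± 1.18 to 6.55 ± 1.3 FPKM (log2 fold change -0.63, limma adjusted p = 6.1e-05, 8 of 8 libraries), and Trp53inp1 fell by 0.55 (limma adjusted p = 0.00183, 8 of 8 libraries). Both were higher with YKL-05-099 than with PTH, by 0.62 and 0.74 (limma adjusted p = 0.00022 each, 8 of 8 libraries). The death receptor gene Fas fell by 0.39 with PTH (limma adjusted p = 0.0135) and by 0.51 with YKL-05-099 (limma adjusted p = 0.0025), in 8 of 8 libraries each. Mdm4, an inhibitor of p53, fell by 0.38 with YKL-05-099 (limma adjusted p = 0.00541, 8 of 8 libraries), and its log2 fold change with PTH was -0.21 (limma adjusted p = 0.114).

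In the list of growth arrest genes and CDK inhibitors more genes rose than fell, but Cdkn1a was the only CDK inhibitor gene called higher. Of 13 tested of 14, 4 rose and 1 fell with PTH, and 5 rose and 0 fell with YKL-05-099 (also 0 lower at an unadjusted p under 0.05). Of all genes 6% rose and 11.1% fell with PTH, and 6.26% and 11.5% with YKL-05-099. The medians of the list were 0.11 and 0.12 against -0.05 for all genes. The 4 genes that rose with PTH were the antiproliferative BTG/TOB genes Btg2, Tob1 and Tob2 and, counted above, Cdkn1a. The gene that fell with PTH was the CDK inhibitor gene Cdkn1b (log2 fold change -0.21, limma adjusted p = 0.00847, 0 of 8 libraries above the vehicle mean). No other CDK inhibitor gene tested passed with either agent. Tob2 rose from 20.2 ± 5.11 FPKM to 52.6 ± 12.9 with PTH (log2 fold change 1.38, limma adjusted p = 9.7e-06) and 62.9 ± 18 with YKL-05-099 (1.61, limma adjusted p = 4.3e-06). Tob1 rose from 43.4 ± 3.08 FPKM by 0.94 with PTH (limma adjusted p = 0.00031) and by 1.18 with YKL-05-099 (limma adjusted p = 5.9e-05). Btg2, itself also a p53 target, rose from 6.06 ± 1.26 FPKM by 1.57 (limma adjusted p = 0.00185) and 1.94 (limma adjusted p = 0.00047). All 3 were above the vehicle mean in 8 of 8 libraries of both groups, and 0 of the 13 genes passed in limma between YKL-05-099 and PTH (2 at an unadjusted p under 0.05).

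The stress-inducible transcription factors had the highest medians of the 6 lists, 0.92 with PTH and 0.98 with YKL-05-099. Of 12 tested in limma, 8 rose and 0 fell with PTH, and 9 rose and 0 fell with YKL-05-099 (10 and 0 at an unadjusted p under 0.05 in both cases). The share of all genes that rose was 6% with PTH and 6.26% with YKL-05-099. Nr4a1, an orphan nuclear receptor induced by cAMP, rose from 1.00 ± 0.430 FPKM to 65.6 ± 35.2 with PTH and 45.7 ± 16.2 with YKL-05-099, log2 fold changes of 5.87 and 5.39 (limma adjusted p = 3.9e-12 and 1.2e-10, 8 of 8 libraries each). Atf3 rose by 2.98 and 2.78 (limma adjusted p = 2.5e-08 and 5e-07) and Cebpb by 2.31 and 2.02 (limma adjusted p = 1e-06 and 3.1e-05), in 8 of 8 libraries of each group. Crem, whose inducible ICER product represses CRE-driven genes, differed most of the 12 between the agents, at 7.58 ± 1.23 FPKM with vehicle, 56.9 ± 7.29 with PTH and 13.6 ± 3.71 with YKL-05-099 (SD, n = 8 each). It rose by 2.90 with PTH and 0.80 with YKL-05-099 (limma adjusted p = 4e-14 and 0.00025), and the difference between the agents was -2.10 (limma adjusted p = 3.2e-11, 8 of 8 libraries).

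**Figure D4:**
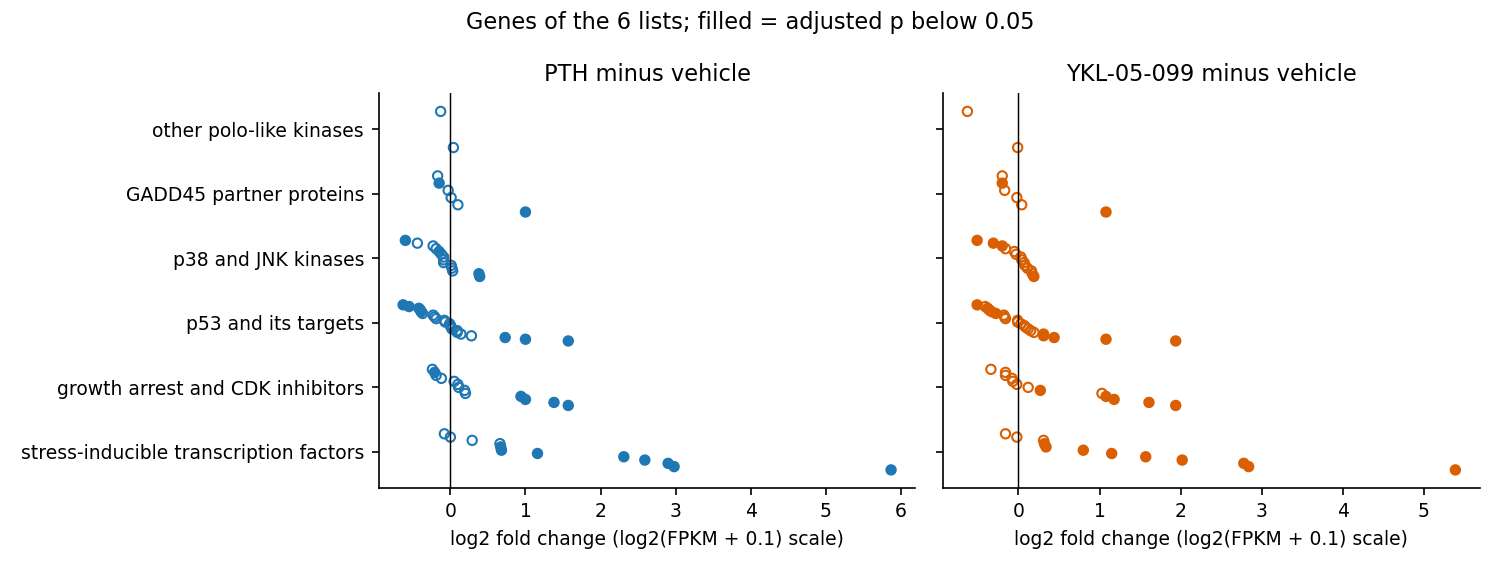
Log2 fold changes (log2(FPKM + 0.1) scale) of every tested gene of the 6 lists for PTH minus vehicle and YKL-05-099 minus vehicle, 1 point per gene, filled where the limma adjusted p was under 0.05. The transcription factor list reaches 5.87 and 5.39 (Nr4a1), while the p38 and JNK list lies between -0.60 and 0.39.

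Markers of other cells were read beside these values, since in bulk kidney fewer cells of a type and less RNA per cell cannot be told apart. For the marker calls given here, the shares over all genes were 6% higher and 11.1% lower with PTH, and 6.26% and 11.5% with YKL-05-099. The summed level of 6 endothelial markers ran from 102 to 229 FPKM with vehicle, 107 to 197 with PTH and 62.7 to 158 with YKL-05-099, and 3 of the 6 (Tek, Flt1 and Kdr) were called lower with YKL-05-099 than with vehicle. Of 10 leukocyte markers, 9 were among the genes measured and 5 were tested. The summed levels of the 9 were 25.2 to 37.1, 28.8 to 57.3 and 22.3 to 34.4 FPKM. Csf1r was called higher with PTH and Ptprc lower with YKL-05-099. Summed urothelium markers ran from 2.83 to 35.4, 1.63 to 65.8 and 1.96 to 39.6 FPKM, with 0 of 6 called by limma in either comparison with vehicle, also at an unadjusted p under 0.05. Summed adipocyte markers ran from 3.26 to 67.5 FPKM over all libraries, with Lipe called lower with PTH and Adipoq, Plin1, Lep and Retn at a median of 0, adrenal cortex markers from 1.35 to 2.77 and red blood cell markers from 133 to 307. The part of these cells in the levels of the 5 genes was not tested. No source names the animal behind each library, so p-values measure the spread between libraries, which may in part be technical.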

How the data were processed

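RNA was prepared with Trizol from whole kidneys and sequenced on the BGISEQ500 platform. FPKM values of 24 libraries were deposited by the authors in 1 table. According to the submitters' notes, which give no roles, STAR 2.7.2b and RSEM 1.3.0 were used, as were DESeq2 and the builds mm10 and GRCm38. The annotation release was not given in the sources used here, nor was the strand setting. FPKM is relative to the library total, so a change in a few abundant genes shifts the rest. There was 1 unused column of values, identical to that of PTH replicate 3. RefSeq matched 99.7% of the gene identifiers, through which 25 symbols stored as dates were recovered.

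Analysis used log2(FPKM + 0.1), on which fold changes of low genes come out too small. The 13991 of 19426 genes that averaged 0.5 FPKM or more were fitted in limma 3.58.1 (R 4.3.3) with a mean-variance trend over 3 groups of 8 libraries, p-values were adjusted by Benjamini-Hochberg over all genes, and a call was an adjusted p below 0.05. The code was tested on simulated data. Correlations within groups used all 40320 pairings, so that the smallest p possible was 5e-05. Depth was estimated from low values of genes with transcripts of 700 to 1200 bases, of which 75.1% to 84.5% per library lay within 0.2 of a whole number of fragments. The depth was chosen as the value that brought these numbers closest to whole, so that share is not an independent check. Full transcript lengths were used, the depth is approximate, and counts per gene were not recovered.

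The members and lists were chosen with earlier results of these data known. Named genes were the 5 members, the 3 most alike genes of each (1 of them is not reported here), and up to 4 genes per list with the smallest adjusted p in a comparison. List genes named for not passing, and marker genes beside a result, were added for context after their values were seen. Alternatives were another pseudocount, no filter, median-ratio and quantile scaling, library weights, a replicate block, fits of 2 groups and leaving out each library, and, chosen after seeing the data, leaving out the 4 libraries highest in urothelium markers. Protein sequences were not analysed here.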

Additional observations from a re-analysis of the deposited data

Results flagged for a closer look

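In 2 of the 15 combinations of gene and group examined, the lowest library stood far from the other 7 by Dixon's criterion for 8 values. Both were YKL-05-099 replicate 1. Gadd45a was at 29.16 FPKM there, a gap of 0.541 of the group's range, and Gadd45g at 63.93 FPKM, a gap of 0.533. Chance gives such a mark in about 1 of 20 groups, and the genes share the library, so the marks are not independent. In the same library Cyp27b1 was at 11.93 FPKM and Nr4a1 at 12.87 FPKM, where the other YKL-05-099 libraries were at 20.06 to 62.53 and 34.06 to 63.02 FPKM.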

How the results depend on the processing

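The fold changes of the 5 genes moved by less than 1 residual SD between libraries (0.20 to 0.75, log2 scale) in 465 of 465 values (15 fold changes under 31 settings). That bound is wide, so the count says little about stability. Leaving out a library of the third group, the replicate block and the fit of 2 groups cannot move a fold change. Leaving out 1 library at a time, Plk2 with PTH ran from -0.01 to 0.24. Gadd45b between the agents ran from -0.03 to 0.34. For the up to 4 genes per list with the smallest adjusted p in a comparison, 32 of 39 calls held under all 32 alternatives. Other calls named above were not followed through the alternatives. They include Fas and Cdkn1b with PTH, Pmaip1 and Crem with YKL-05-099, Cdc20 and the marker genes of other cells. Counts of called genes were less stable. Library weights gave 3834 genes with YKL-05-099 instead of 2481, a fit of the 2 groups alone gave 519 genes between the agents instead of 898 and 6 list genes instead of 10, and leaving out the 4 libraries highest in urothelium markers (chosen after seeing the data) gave 564. Median-ratio scaling gave 6 values of Pearson's r that passed instead of 2 and 2 of Spearman's rho instead of 3, and the cause was not tested. It also changed the split of higher and lower calls from 839 and 1558 to 1097 and 1102 with PTH and from 876 and 1605 to 1164 and 1151 with YKL-05-099; quantile normalization gave 1051 and 1332, and 1156 and 1394.

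Leaving out 1 library at a time gave 1931 to 2789 called genes with PTH, 1976 to 2928 with YKL-05-099 and 629 to 1135 between the agents, and 21 to 26, 19 to 27 and 7 to 12 list genes. With the replicate number as a block, 2203, 2265 and 760 genes were called, and 23, 23 and 8 list genes. The numbers did not pair the libraries: 1 of 24 same-numbered pairs correlated above 0.1, and 1 of 24 libraries correlated best with its own number. Depth limits Gadd45b, Plk3 and Plk2 in their lowest libraries, with as few as 37, 40.3 and 43.9 fragments behind a value.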
